A study of Mus musculus with 4 samples.

Results

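The report concerns 9 Ms4a genes of mouse chromosome 19, Ms4a1, Ms4a4a, Ms4a4b, Ms4a4c, Ms4a6b, Ms4a6c, Ms4a6d, Ms4a7 and Ms4a8a, out of 26246 named genes measured. They were chosen by gene symbol, as part of the membrane-spanning 4A gene cluster, and each was read by 1 probe set. Expression was measured in J774M, a mouse myeloid line given in the labels as MDSCs, or myeloid-derived suppressor cells, which are immature cells that hold back T cell responses. NC06, 2 samples, were J774M cells given 10 uM of the neutral ceramidase inhibitor NC06 and cultured for 24 h. The control group, also 2 samples, was J774M cells with no NC06 named in their titles, and the sources used here do not give what they received in its place. Both groups were the same cell line in the same serum-containing medium, without a genetic change named in the labels. Whether a group's samples were grown as separate cultures is not in the labels, so the spread behind each p-value may be technical.

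MS4A proteins cross the membrane 4 times and mostly act beside other receptors, altering their place in the membrane, their signalling or their turnover. The best known is MS4A1, which is CD20 of B cells, and MS4A2 is the beta chain of the high-affinity IgE receptor of mast cells. In macrophages MS4A4A is known to associate with dectin-1, the beta-glucan receptor encoded by Clec7a, and MS4A7 is used as a marker of macrophages. The Ms4a4 and Ms4a6 genes have multiplied in the mouse, so several mouse genes stand where a human has fewer.

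Each array gave a log2 signal per probe set, with a median between 4.74 and 4.75 on the NC06 arrays and between 4.67 and 4.68 on the control arrays. The lower quartile lay at 3.57 on both NC06 arrays and between 3.51 and 3.53 on the control arrays. A difference is NC06 minus control in log2, so 1 is a doubling. It was tested with limma over all genes with Benjamini-Hochberg adjustment and a threshold of 0.05. That fit called 0.0% of the 26246 genes and 0 of the 9 members, with 4 members higher and 1 lower at an unadjusted p under 0.05. Over all genes that unadjusted level was passed by 7.79% with a higher and by 7.52% with a lower signal. A second limma fit, which lets the variance prior follow the signal (trend and robust), called 2.44% of genes higher and 3.12% lower, and among the members it called Ms4a6d. The exact permutation test of 2 arrays against 2 cannot go below 0.333 two-sided, so it adds no call for any single gene.

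Ms4a6d, Ms4a6b, Ms4a6c and Ms4a7 read higher on both NC06 arrays than on both control arrays, by 0.38 to 1.11 log2. Ms4a1 read lower, and the arrays of both groups overlapped in Ms4a4a, Ms4a4b, Ms4a4c and Ms4a8a. Over all genes 23.3% lay higher without overlap and 24.4% lower, against 44.4% and 11.1% of the 9 members. The median difference of the 9 members was 0.26 log2, and over all genes it was 0.002. The 4 members that read higher are also those with a brighter group mean above 4.99, the median of that measure over all genes, and the other 5 lay below it. Ms4a7 passed that median through its NC06 mean, and by the mean over the 4 arrays 3 members passed.

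**Figure D1:**
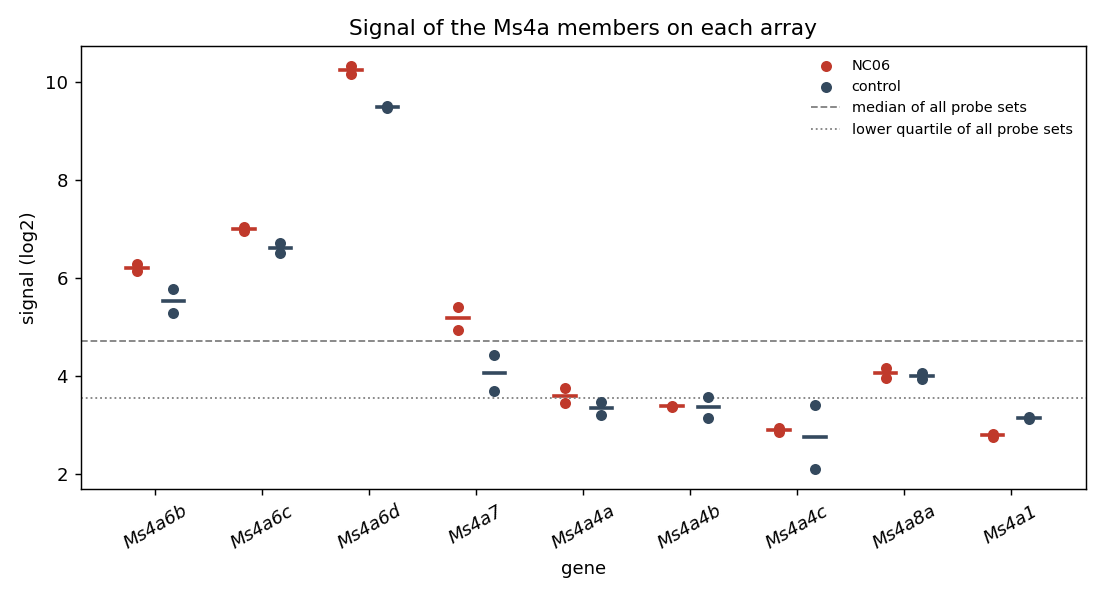
Signal in log2 (y axis) of the 9 members (x axis), with each array as a point and a bar at the mean of the 2 arrays, NC06 in red on the left and control in dark blue on the right of each gene. Ms4a6b, Ms4a6c, Ms4a6d and Ms4a7 lie higher in NC06 without overlap, and Ms4a1, under the lower quartile of all probe sets, lies lower.

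Ms4a6d encodes a macrophage tetraspan protein known in the mouse. Its signal was 10.16 and 10.33 log2 on the NC06 arrays, against 9.47 and 9.52 on the control arrays. The gap of 0.65 between the groups was larger than the 0.17 between the NC06 arrays and the 0.048 between the control arrays. A gap that exceeds both distances within groups, with NC06 higher, was seen in 9.54% of all genes. The means were 10.25 ± 0.12 in NC06 cells and 9.49 ± 0.034 in control cells (SD, n = 2 each). The difference was 0.75 log2 (SE 0.095, 95% interval from 0.50 to 1.01), or 1.69-fold. In the limma fit its unadjusted p was 0.000937 and its adjusted p 0.137, so that it did not pass over all genes. In the trend and robust limma fit Ms4a6d rose, with an adjusted p of 0.00107, and on leaving out each array in turn that adjusted p ran from 0.00262 to 0.0374. With genes below the median signal left out before the plain fit, which then called 3.58% of 13123 genes higher, the adjusted p of Ms4a6d was 0.0198, and with the lowest signal quartile left out it was 0.0624, which did not pass. In the authors' deposited table Ms4a6d has a ratio of 1.69 and a p of 0.0132, one of 2 members with a p under 0.05, a level that table gives to 5.98% of its probe sets with a ratio above 1 and to 6.82% with a ratio below 1. The probe set is 17362973, and its signal was brighter than that of 95.5% of the genes tested.

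Ms4a6b and Ms4a6c, close relatives of Ms4a6d, lie on either side of Gm8369 in the cluster. Ms4a6b read 6.14 and 6.28 log2 on the NC06 arrays, against 5.78 and 5.29 on the control arrays. The groups did not overlap, but the control arrays lay 0.49 apart, more than the gap of 0.36 between the groups. The difference was 0.68 log2 (SE 0.19, 95% interval from 0.17 to 1.18), or 1.60-fold. Without control replicate 2 it was 0.433, and over the 4 arrays left out in turn it ran from there to 0.92. Ms4a6c read 7.05 and 6.96 log2 on the NC06 arrays, against 6.72 and 6.52 on the control arrays. Here the gap of 0.24 was larger than the 0.20 between the control arrays and the 0.09 between the NC06 arrays. The difference was 0.38 log2 (SE 0.11, 95% interval from 0.099 to 0.67), or 1.30-fold. Neither passed over all genes, with a limma adjusted p of 0.258 for each. In the trend and robust limma fit it was 0.0632 for Ms4a6b and 0.0744 for Ms4a6c. The intervals of the 3 Ms4a6 genes overlap, and whether their differences are unequal was not tested. Probe sequences are not given in the files, so how far the probe sets of these paralogs share targets was not tested.

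The start regions of Ms4a6b and Ms4a6c are shown because both genes read higher together and their windows hold long identical runs. Both are from RefSeq (GRCm38.p6), plus strand, 250 bases before to 50 bases after the annotated start, at chr19:11518309-11518608 for Ms4a6b and chr19:11469118-11469417 for Ms4a6c. Capitals mark runs of at least 15 bases that the other window of the pair also holds.
Ms4a6b: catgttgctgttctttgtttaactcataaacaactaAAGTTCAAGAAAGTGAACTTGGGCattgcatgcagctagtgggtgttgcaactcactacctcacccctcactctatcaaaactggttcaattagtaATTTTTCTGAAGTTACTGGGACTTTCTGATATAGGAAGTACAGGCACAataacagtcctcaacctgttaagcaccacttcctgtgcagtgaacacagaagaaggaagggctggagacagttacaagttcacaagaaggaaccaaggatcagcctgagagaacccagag
Ms4a6c: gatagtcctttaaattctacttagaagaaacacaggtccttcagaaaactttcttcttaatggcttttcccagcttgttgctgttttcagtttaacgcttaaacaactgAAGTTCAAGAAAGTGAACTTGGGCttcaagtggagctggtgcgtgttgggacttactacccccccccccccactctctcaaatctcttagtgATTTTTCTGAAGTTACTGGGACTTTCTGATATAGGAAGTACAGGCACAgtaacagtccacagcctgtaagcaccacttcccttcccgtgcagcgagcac

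The pair shares a run of 24 bases and a run of 48 bases. Counted from the first base of the window, with the start at base 251, the longer run lies at bases 133 to 180 in Ms4a6b and at bases 202 to 249 in Ms4a6c, so the annotated starts stand at different distances from it. A global alignment of the 2 windows had 192 identical bases, or 64.0% of 300, second among the 171 pairs of 19 Ms4a windows, whose median was 51.7%. The highest was 77.0%, for Ms4a4b and Ms4a4c, a pair of paralogs whose arrays overlapped between groups. RefSeq windows were found for 7 of the 9 members, with no entry for Ms4a1 and Ms4a6d.

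Ms4a7 had the largest difference of the members and also a wide spread. Its signal was 5.42 and 4.95 log2 on the NC06 arrays, against 3.71 and 4.44 on the control arrays. Both NC06 arrays were higher, but the control arrays lay 0.73 apart, more than the gap of 0.51 between the groups. The means were 5.18 ± 0.33 in NC06 cells and 4.07 ± 0.52 in control cells (SD, n = 2 each). The difference was 1.11 log2 (SE 0.30, 95% interval from 0.30 to 1.93), or 2.17-fold. Without each array in turn it ran from 0.75 to 1.48. The limma adjusted p was 0.256, and 0.0536 in the trend and robust fit. In the authors' deposited table Ms4a7 has a ratio of NC06 over control of 3.28 for the first pair of same-numbered samples and 1.43 for the second. The probe set, 17362953, lay above the array medians in NC06 cells and below them in control cells.

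RefSeq gives Ms4a7 a pair of start windows. The first, on the minus strand at chr19:11336097-11336396 (GRCm38.p6), is shown because it holds GAGGAA, the core of the motif of PU.1, a transcription factor that macrophages depend on. Capitals mark that match, at bases 294 to 299, just after the start.
Ms4a7: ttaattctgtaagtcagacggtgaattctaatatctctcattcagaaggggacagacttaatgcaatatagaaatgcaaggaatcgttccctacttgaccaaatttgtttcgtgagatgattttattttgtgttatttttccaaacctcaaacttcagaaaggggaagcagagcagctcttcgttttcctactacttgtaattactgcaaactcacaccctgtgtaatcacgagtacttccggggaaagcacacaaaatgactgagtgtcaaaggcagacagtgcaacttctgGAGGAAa

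GAGGAA, read on both strands, occurs in 28.3% of all 32851 RefSeq start windows of this length and in 6 of the 19 Ms4a windows. The other 7 motifs searched on both strands were the interferon element ISRE (GAAA, any 2 bases and GAAA again, 3.44% of all windows), the STAT site GAS (TTCNNNGAA, 8.3%), C/EBP (TTGCNNAA, 10.8%), AP-1 (TGANTCA, 7.81%), the antioxidant element ARE (TGACNNNGC, 12.4%), a MAF half-site (TGCTGAC, 4.67%) and the p53 half-site (8.36%). Of the 19 Ms4a windows, AP-1 occurred in 5, C/EBP in 3, ARE in 2, and ISRE, GAS, the MAF half-site and the p53 half-site in 1 each. The AP-1 matches lay in windows of Ms4a8a, Ms4a12, Ms4a14, Ms4a7 and Ms4a4b. Whether any of these shares differs from that of all windows was not tested. The Ms4a6b and Ms4a6c windows held no match to any of the 8 motifs, and the AP-1 match of Ms4a7 was in its second window. No matches to different motifs overlapped within the Ms4a windows. A match is a description of letters and not a site of binding.

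Ms4a4a, Ms4a4b and Ms4a4c form the Ms4a4 group, which together with Ms4a4d lies between Ms4a7 and Ms4a6d. Ms4a4a, the macrophage gene of the group, read 3.76 and 3.44 log2 on the NC06 arrays, against 3.48 and 3.21 on the control arrays. The lower NC06 array lay under the higher control array, and the difference of 0.26 log2 (SE 0.16, 95% interval from -0.17 to 0.69) had a limma adjusted p of 0.495. Leaving out NC06 replicate 1 gave 0.10 and leaving out NC06 replicate 2 gave 0.421, while leaving out control replicate 1 gave 0.394 and control replicate 2 gave 0.128. Ms4a4b, known from mouse T cells, read 3.37 and 3.39 log2 on the NC06 arrays, against 3.57 and 3.15 on the control arrays. Both NC06 values lay between the control values, with a difference of 0.020 log2 (95% interval from -0.41 to 0.45). Ms4a4c, known in the mouse as inducible by interferon, read 2.86 and 2.94 log2 on the NC06 arrays, against 2.10 and 3.41 on the control arrays. The control arrays of Ms4a4c lay 1.31 apart, and its difference of 0.14 log2 had an interval from -1.07 to 1.35. All 3 genes had a brighter group mean below 3.81, the lower quartile over all genes, so that little signal stood behind these values. A difference of the size seen in Ms4a6d lies outside the intervals of Ms4a4a and Ms4a4b and within that of Ms4a4c. At so low a signal these intervals describe the array values, and they cannot exclude a change in RNA of that size.

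The start windows of Ms4a4b and Ms4a4c are shown as the most alike pair of the cluster. They lie on the plus strand at chr19:11443308-11443607 and chr19:11407411-11407710 (RefSeq, GRCm38.p6), with shared runs in capitals as before. One of the 17-base runs in both holds GAGGAA. The Ms4a4b window also holds an AP-1 match at bases 273 to 279, and the Ms4a4c window holds none.
Ms4a4b: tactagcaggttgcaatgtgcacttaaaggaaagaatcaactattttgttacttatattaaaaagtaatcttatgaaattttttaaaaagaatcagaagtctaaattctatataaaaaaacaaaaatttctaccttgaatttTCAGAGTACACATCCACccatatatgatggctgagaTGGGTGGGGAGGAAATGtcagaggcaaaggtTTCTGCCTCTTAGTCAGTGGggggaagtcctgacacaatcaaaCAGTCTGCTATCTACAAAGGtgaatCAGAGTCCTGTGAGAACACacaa
Ms4a4c: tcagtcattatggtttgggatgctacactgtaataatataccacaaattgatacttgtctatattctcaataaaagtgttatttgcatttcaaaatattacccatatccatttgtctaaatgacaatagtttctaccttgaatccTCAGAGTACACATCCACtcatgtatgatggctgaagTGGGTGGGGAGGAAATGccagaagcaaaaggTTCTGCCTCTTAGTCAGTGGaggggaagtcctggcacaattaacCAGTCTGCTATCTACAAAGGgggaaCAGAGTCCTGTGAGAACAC

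Ms4a8a, known in the mouse from macrophages exposed to glucocorticoid and IL-4, read 4.16 and 3.96 log2 on the NC06 arrays, against 3.95 and 4.07 on the control arrays. The groups overlapped, and the difference was 0.050 log2 (SE 0.11, 95% interval from -0.24 to 0.34, limma adjusted p 0.865). Of 18 genes of glucocorticoid, IL-4 or IL-10 responses, 3 were higher and 2 lower at an unadjusted p under 0.05, with a median difference of -0.011 log2. Those with the smallest p were Il4ra, a receptor chain for IL-4, at 0.45 log2, Tsc22d3, a glucocorticoid-induced gene, at -0.33, and the phosphatase Dusp1 at 0.32. Il4ra passed the trend and robust limma fit (adjusted p 0.0323), and Tsc22d3 and Dusp1 did not.

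Ms4a1, which encodes CD20, was the member that read lower. Its signal was 2.83 and 2.77 log2 on the NC06 arrays, against 3.12 and 3.17 on the control arrays. The gap of 0.30 exceeded the 0.063 between the NC06 arrays and the 0.042 between the control arrays, as in 11.4% of all genes in that direction. The difference was -0.35 log2 (SE 0.079, 95% interval from -0.56 to -0.14), or 0.786-fold. Its limma adjusted p was 0.229, and 0.294 in the trend and robust fit. In the authors' deposited table its p was 0.0117. All 4 values lay below the lower quartile of their arrays, and the brighter group mean exceeded that of 14.3% of the genes. Of 13 B cell markers 2 exceeded the median of all genes in their brighter group, the immunoglobulin heavy chain Ighm and the adaptor Bank1, while Pax5, Cd79a and Cd79b, which are among the defining markers, lay below it. Ighm, at 11.92 log2 in its brighter group, exceeded 99.5% of the genes, and Bank1, at 9.98, exceeded 94.2%. The mean of the B cell list was 5.22 and 5.21 log2 on the NC06 arrays, against 5.19 and 5.13 on the control arrays. Ighm and Bank1 raise that mean. Among these markers Ighm read 0.39 log2 lower with NC06, called in the trend and robust limma fit (adjusted p 0.00159), Fcrla 0.33 higher and Cd22 0.22 higher, both not called.

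**Figure D2:**
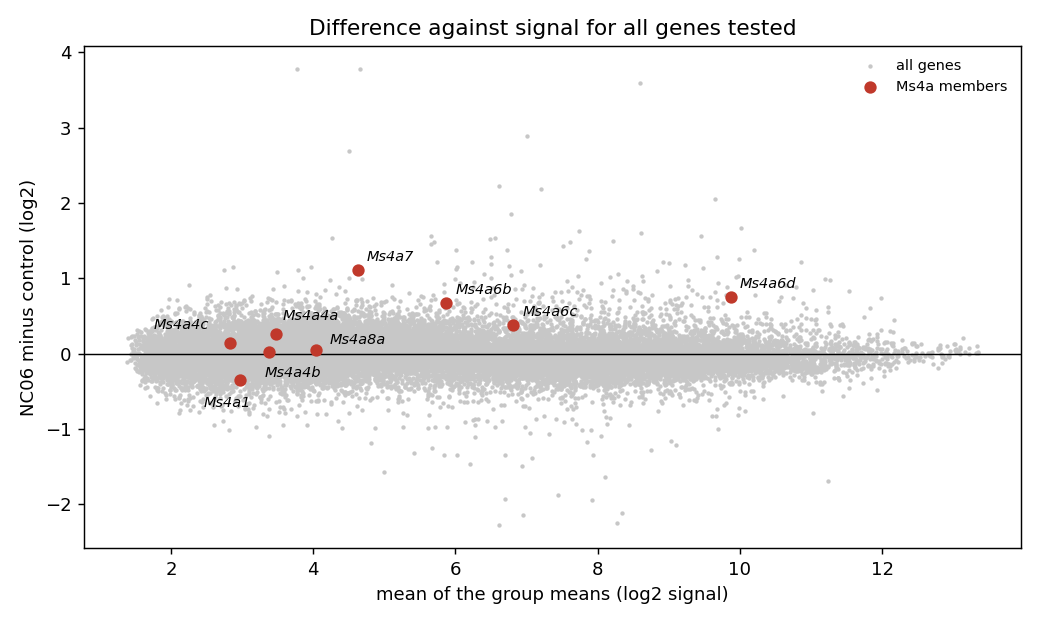
NC06 minus control in log2 (y axis) against the mean of the 2 group means in log2 signal (x axis), with all 26246 genes in grey and the 9 members in red. Ms4a6d lies at 0.75 log2 among the bright genes, and Ms4a7 at 1.11 log2 lies among dimmer ones.

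The cluster holds other Ms4a genes, and 12 of them were measured. With the related Tmem176a and Tmem176b the list had 14 genes. At an unadjusted p under 0.05, 2 of them were higher and 0 lower, with a median difference of 0.040 log2. Ms4a14, the neighbour of Ms4a7, read 3.97 and 4.10 log2 on the NC06 arrays, against 3.07 and 3.22 on the control arrays. Both NC06 arrays were above both control arrays, and the difference was 0.89 log2 (SE 0.099, limma adjusted p 0.106). Both control values lay below the lower quartile of their arrays, so little signal stood behind the control mean. It passed the trend and robust fit (adjusted p 0.021), a call lost on leaving out any 1 of the 4 arrays, where the adjusted p ran from 0.082 to 0.17. Ms4a4d read 4.57 and 4.56 log2 on the NC06 arrays, against 4.25 and 4.27 on the control arrays, a difference of 0.30 (SE 0.075) that was not called in either fit. Ms4a19, with a difference of -0.21, had the next smallest p. The mast cell gene Ms4a2 had a difference of 0.25 (SE 0.16) and Ms4a3, known from myeloid progenitors, one of -0.24 (SE 0.17), neither called in either fit. The arrays of Ms4a2 overlapped between groups, and those of Ms4a3 lay lower in NC06 cells by a gap of 0.0087, against 0.44 between the control arrays. Of 11 mast cell and basophil markers 0 exceeded the median of all genes in their brighter group.

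In the order of the genes along chromosome 19, all 10 measured genes from Ms4a14 to Ms4a6d had a difference above 0, of 0.020 to 1.11 log2. Of these 10, 7 lay higher and 0 lower without overlap. The 10 genes from Ms4a10 to Ms4a5 had 4 differences above 0 and 6 below, from -0.35 to 0.21 log2. Of those, 1 lay higher and 3 lower without overlap. Over all genes 23.3% lay higher and 24.4% lower without overlap. The borders of these stretches were drawn after the values had been seen, so the contrast is a description, and the sign of Ms4a4b and Ms4a4c turns with the scaling or with the array left out. Ms4a4a, Ms4a4c, Ms4a4b, Ms4a6c, Ms4a6b and Ms4a4d are transcribed from the plus strand in RefSeq, and Ms4a14 and Ms4a7 from the minus strand. The next protein-coding genes on either side of the cluster were Ccdc86, with a difference of -0.14 (SE 0.086), and Oosp2, with 0.22 (SE 0.13). Of 21 measured genes in the wider neighbourhood 1 was higher and 1 lower at an unadjusted p under 0.05, with a median of 0.040 log2. These were the lysosomal transporter Slc15a3 at 0.39 and the splicing factor Prpf19 at -0.35, both called in the trend and robust limma fit (adjusted p 0.0113 and 0.0152). Cd5 came next at 0.24 and was not called.

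**Figure D3:**
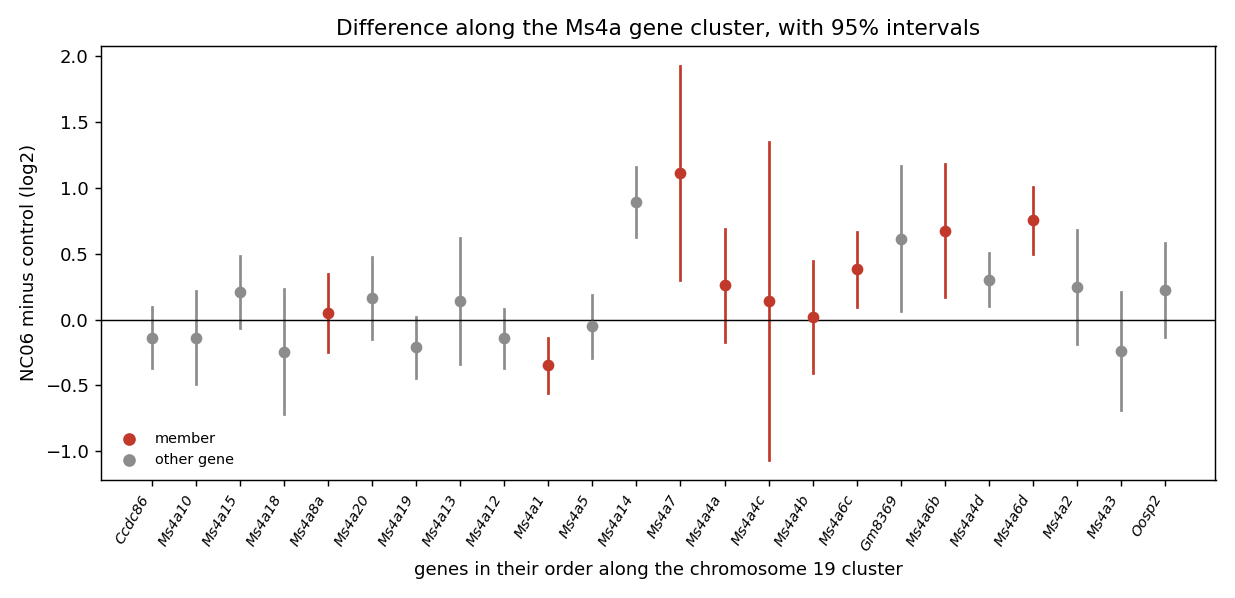
NC06 minus control in log2 (y axis) for 24 genes in their order along the cluster (x axis), with points at the limma difference and lines for its 95% interval, members in red and other genes in grey. The genes from Ms4a14 to Ms4a6d lie above 0, with intervals that exclude 0 for Ms4a14, Ms4a7, Ms4a6c, Gm8369, Ms4a6b, Ms4a4d and Ms4a6d.

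A list of receptors and adaptors was read too, drawn up as genes that may work with MS4A proteins. Whether each of them does so was not tested. Itgam, Trem2 and Cd14 stand also in the list of macrophage genes given below. Of 18 genes 3 were higher and 2 lower at an unadjusted p under 0.05, and the trend and robust limma fit called 3 higher and 1 lower, with a median of 0.12 log2. The integrin chains Itgam, which encodes CD11b, and Itgb2 rose in that fit by 0.84 and 0.39 log2 (adjusted p 0.000759 and 0.00194), as did the endotoxin receptor Tlr4 by 0.41 (adjusted p 0.0137). Clec7a, the dectin-1 partner of MS4A4A, read 6.63 and 6.62 log2 on the NC06 arrays, against 7.28 and 7.17 on the control arrays. Clec7a was the gene of this list that fell in the trend and robust limma fit, with a difference of -0.60 and an adjusted p of 0.00891. The adaptors Tyrobp and Fcer1g, at 0.20 and 0.14, and the lipid receptor Trem2, at 0.15, were not called.

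No list was made for MDSCs, the labelled cell type, and the label was not tested. Markers of macrophages were read instead. Of 20 macrophage genes 17 exceeded the median of all genes in their brighter group, with Mrc1, Cd163 and Cebpa below it. The mean of that list was 8.47 and 8.46 log2 on the NC06 arrays, against 8.22 and 8.21 on the control arrays. At an unadjusted p under 0.05, 6 of the 20 were higher and 1 lower, the complement gene C1qb at -0.24, and the list median was 0.12 log2. The trend and robust limma fit called 7 higher and 0 lower, and the 3 with the smallest p were lysozyme Lyz2 at 1.21 log2, the macrophage receptor Adgre1 at 0.88 and Itgam at 0.84. The other 13 macrophage genes were not called, among them the growth factor receptor Csf1r at 0.083 log2 and the Fc receptor Fcgr1 at -0.082. The part of these differences in the values of the members was not tested. In bulk samples more cells of a type and more RNA per cell cannot be told apart.

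Lists named after other cell types were read on the same arrays, and their part in the values of the members was not tested. The name of a list does not tell which cells the RNA came from. Of 14 neutrophil markers 6 were higher and 1 lower at an unadjusted p under 0.05, led by Mmp8 at 2.89 log2, Ly6g at 1.38 and S100a8 at 1.48, all called in the trend and robust limma fit. The lower one was Ngp at -0.28, not called in either fit. The trend and robust limma fit called 5 of the 14 higher and 0 lower. The arrays of 6 overlapped between groups, among them those of S100a9 at -0.22. The list median was 0.267 log2, and 7 of the 14 exceeded the median of all genes in their brighter group. The mean of the neutrophil list was 5.74 and 5.67 log2 on the NC06 arrays, against 5.04 and 5.18 on the control arrays. Of 9 dendritic cell markers 3 were higher at the same unadjusted level, Itgax at 1.46, Clec10a at 0.47 and Siglech at 0.25, of which Itgax alone was called, in the trend and robust limma fit. The other 6 were neither higher nor lower at that level, the list median was -0.021 log2, and the list mean was 5.56 and 5.51 log2 on the NC06 arrays, against 5.38 and 5.26 on the control arrays. Of 16 T and NK cell markers 3 were higher and 1 lower at that level, led by Cd28 at 0.51, Lck at -0.42 and Cd2 at 0.48, of which Cd28 alone was called, in the trend and robust limma fit, with a list mean of 5.15 and 5.12 log2 on the NC06 arrays, against 5.05 and 5.04 on the control arrays. Of these 16 markers 6 exceeded the median of all genes in their brighter group. Among the 6 was the T cell receptor chain Trbc2, at 8.05 log2 in NC06 cells and 7.68 in control cells. The T cell receptor subunits Cd3d, Cd3e and Cd3g lay below that median. Mast cell and basophil markers had 1 higher and 2 lower at the unadjusted level, none of them called in either fit, with Hdc at -0.38, Fcer1a at -0.34 and Prss34 at 0.36. Their list mean was 3.49 and 3.41 log2 on the NC06 arrays, against 3.50 and 3.44 on the control arrays. Of 10 fibroblast and epithelial markers 3 were higher at that level, Epcam at 0.42, Pdgfrb at 0.28 and Acta2 at 0.32, none of them called in either fit, with a list mean of 5.04 on both NC06 arrays, against 4.89 and 4.98 on the control arrays.

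Interferon-induced genes stood on the other side. Of 27 measured 0 were higher and 23 lower at an unadjusted p under 0.05, and the trend and robust limma fit called 20 lower, with a median of -0.95 log2. The 3 with the smallest p were Rtp4 at -2.11, Ifi44 at -1.70 and Ifit1 at -2.28. Ms4a4c, the member known for its response to interferon, had its difference of 0.14 log2 with an interval from -1.07 to 1.35 on the same arrays. That interval leaves out the differences of these 3 genes and holds the median of the list. Both control values of Ms4a4c lay below the lower quartile of their arrays, which left little signal for a fall. The interval therefore cannot tell whether Ms4a4c followed these genes.

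**Figure D4:**
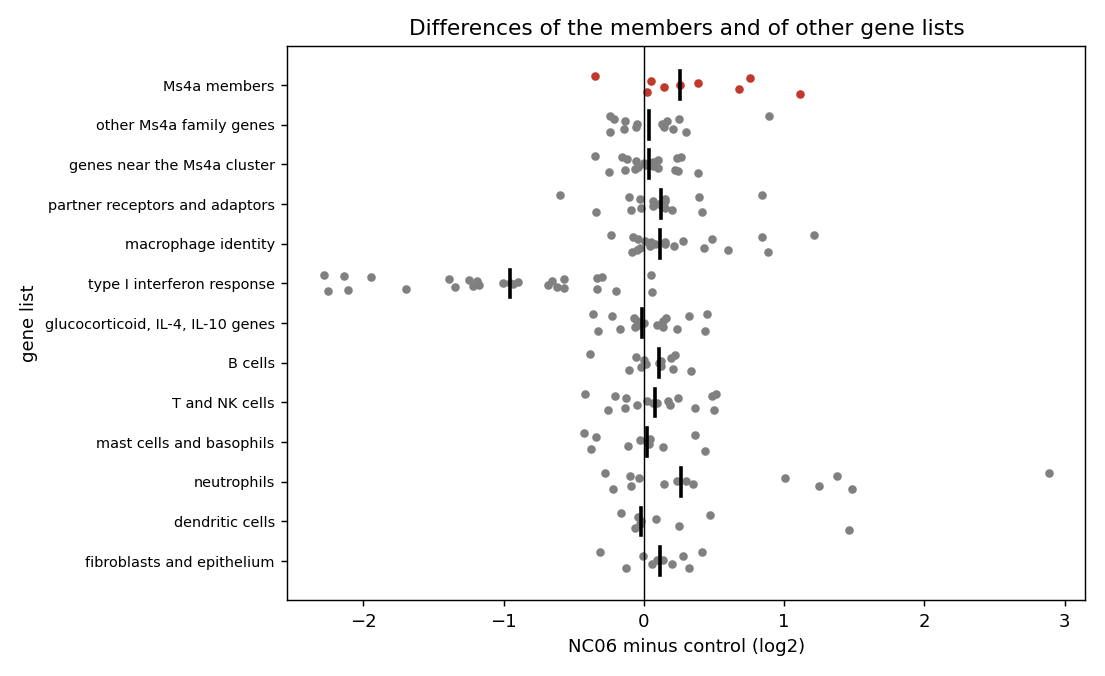
NC06 minus control in log2 (x axis) for each measured gene of 13 lists (rows), with the 9 members in red at the top, other lists in grey and black bars at the list medians. The members' median is 0.26 log2, and that of the interferon list is -0.95 log2.

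Genes whose 4 array values ran most like those of a member were looked up among 11416 brighter named genes, by the root-mean-square distance of values centred on each gene's own mean. Nearest to Ms4a6d were Arl4c, an ARF-like GTPase, at 0.019 log2, Mroh2a at 0.024 and the kinase Dmpk at 0.029, with differences of 0.77, 0.76 and 0.78. Nearest to Ms4a1 were Coq6, an enzyme of ubiquinone synthesis, at 0.0052, Septin10 at 0.011 and the RNA-binding protein gene Pcbp1 at 0.013, with differences of -0.36, -0.36 and -0.34. With 4 arrays many genes lie close to any profile, so these names are a description.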

How the data were processed

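RNA from 4 samples of J774M cells was hybridised to whole-transcript Affymetrix arrays, with 1 array for each sample, and groups came from the sample titles. The authors deposited a log2 value for each probe set, and Partek is the tool in the submitters' processing notes. Which version, background correction, normalization and summarization they used is not given in the sources used here. On the log2 scale the ratio of NC06 over control in the authors' deposited table equalled the differences of the value table to within 2.6e-15 per pair, which settles scale and direction. The deposited p-value was that of an unpaired equal-variance test of these values, to a median deviation of 5.4e-06.

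Of 41345 probe sets, 23521 took a single gene from the platform annotation and 4311 the symbol of the authors' deposited table. The 1820 with several genes and the 11693 without a name were not tested. For genes with several probe sets the one with the highest mean was used. Differences were tested with limma 3.58.1 in R 4.3.3 (lmFit and eBayes, two-sided, 2 residual and 2.36 prior degrees of freedom), with Benjamini-Hochberg adjustment over 26246 genes. The fit was also run on simulated data, with each gene's spread set to that of its own arrays. No result here rests on that run. The number of arrays limits the precision. Tables were made with Python 3.11.15 and pandas 2.3.3. All members were named, and in every other list the 3 genes with the smallest p, with some further ones chosen after their values were seen. The members and lists were chosen with earlier results of these data known. Alternatives were other normalizations, filters on dim genes, variance priors and probe set rules, a replicate block, fits without each array, and the deposited p-values.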

Additional observations from a re-analysis of the deposited data

How the results depend on the processing

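The count of called genes over all genes, 0 in the limma fit, moved under most settings. It was 4 after quantile normalization, 3 after median centring, 2 with a gene's probe sets averaged, 2 with its dimmest one and 63 with the platform annotation alone. It was 135 without the lowest signal quartile, 871 without the genes below the median signal, 836 when that median was taken over the mean of the 4 arrays, 1459 with the trend and robust prior and 1285 with trend alone. The last filter by the mean, trend alone, and trend and robust fitting without each array were chosen after seeing the data. On leaving out each array the count was 0 in the plain fit. With trend and robust fitting it was 715 without NC06 replicate 1, 838 without NC06 replicate 2, 224 without control replicate 1 and 200 without control replicate 2. The count of called members, 0 in the plain fit, was 1, always Ms4a6d, under both median filters, with trend alone, with trend and robust fitting, and with the latter without any 1 array. Ms4a7 passed the filter by the brighter group through its NC06 mean. The median difference of the members was 0.677 without the lowest quartile and with the filter by the mean over the 4 arrays, and 0.716 with the filter by the brighter group, where 5, 3 and 4 members were left, and 0.181 to 0.421 on leaving out each array.

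Ms4a4b turned to -0.0278 after quantile normalization, -0.0529 after median centring and -0.186 without control replicate 2. Ms4a8a turned to -0.0115, -0.0232, -0.0501 without NC06 replicate 1 and -0.0129 without control replicate 1, and Ms4a4c to -0.513 without control replicate 1. Over the 4 arrays left out the differences ran from -0.186 to 0.227 in Ms4a4b, from -0.0501 to 0.15 in Ms4a8a and from -0.513 to 0.796 in Ms4a4c. The other 6 members kept their direction under every alternative run that tested them. The deviations of same-numbered arrays had a correlation of 0.005. That value is taken over all probe sets, dim ones included, so it cannot tell whether same-numbered samples were handled as pairs. With the replicate number as a block in the limma fit, 0 genes were called and the adjusted p of Ms4a6d was 0.365. The authors' deposited p-values gave 2 members a p under 0.05, Ms4a1 and Ms4a6d, and 0 after adjustment. The cause of these shifts was not tested.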
